A study of Mus musculus with 36 samples.

Results

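Livers of mice carrying a point mutation of the nuclear receptor LXRalpha were sequenced, and 7 genes that bind or take up fatty acids were followed through all groups: the fatty acid binding proteins Fabp1, Fabp2, Fabp4, Fabp5 and Fabp7, the scavenger receptor Cd36 and the fatty acid transport protein Slc27a2. They were taken by symbol, as 7 of the 49315 rows of the expression table, and all 7 reached the minimum level for testing, as did 16638 genes in all. The mice were males of 11 to 12 weeks, and a CRISPR edit had changed tryptophan 441 of LXRalpha to phenylalanine. Controls had tryptophan on both alleles (W/W), heterozygotes had 1 edited allele (W/F) and homozygotes had only edited alleles (F/F). Every genotype had 4 mice on normal chow, 4 on the diet TD.96121, rich in fat and cholesterol and used to bring on metabolic steatohepatitis (MASH), with vehicle, and 4 on that diet with T0901317. The diet was given for 4 weeks, and T0901317, a synthetic LXR agonist, was gavaged daily at 10 mg/kg for the last 2 weeks, with vehicle given to the others in the same way. Mice on chow came from a cohort of their own, so diet and cohort cannot be told apart. Nothing in the labels limits the edit to hepatocytes or to the liver. The labels number the 4 libraries of each group without naming animals, so p-values measure the spread between these libraries.

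Fatty acid binding proteins are small cytosolic proteins that fold into a barrel around a long-chain fatty acid and carry it to membranes, peroxisomes, lipid droplets or the nucleus. Fabp1 is the liver form and one of the abundant proteins of the hepatocyte cytosol, Fabp2 is the intestinal form, Fabp4 is the form of adipocytes and macrophages, Fabp5 is the epidermal form, also made by macrophages, and Fabp7 is the brain form, also described in Kupffer cells, the resident macrophages of the liver. Cd36 takes up long-chain fatty acids and oxidised lipoproteins at the cell surface, and Slc27a2 (FATP2) brings fatty acids into hepatocytes and joins very-long-chain ones to coenzyme A. LXRalpha is activated by oxysterols, pairs with RXR and turns on genes of cholesterol export and fatty acid synthesis. Fabp1, Fabp2, Cd36 and Slc27a2 are textbook targets of another lipid-sensing receptor, PPARalpha.

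In GRCm38 with the GENCODE M21 annotation, Fabp1 (ENSMUSG00000054422) lies on chromosome 6 at chr6:71199827-71205023 on the plus strand, Fabp2 (ENSMUSG00000023057) at chr3:122895072-122899506 on the plus strand, Cd36 (ENSMUSG00000002944) at chr5:17781690-17888801 on the minus strand and Slc27a2 (ENSMUSG00000027359) at chr2:126552407-126588243 on the plus strand. Fabp7 (ENSMUSG00000019874) lies at chr10:57784881-57788450 on the plus strand. Fabp5 (ENSMUSG00000027533, chr3:10012548-10016607, plus strand) and Fabp4 (ENSMUSG00000062515, chr3:10204088-10208576, minus strand) share a cluster, 187.5 kb apart with 4 coding genes between them, among them the family members Pmp2 and Fabp9. The coding sequences of Fabp4 and Fabp5 are identical at 61.1% of aligned positions, those of Fabp4 and Fabp7 at 62.5%, and those of Fabp1 and Fabp2 at 49.4%. One stretch of 60 coding bases is shown for Fabp4, Fabp5 and Fabp7, with the 36 bases that all of them share in capitals. It was picked by a search for the ungapped stretch with the most shared bases.
Fabp4: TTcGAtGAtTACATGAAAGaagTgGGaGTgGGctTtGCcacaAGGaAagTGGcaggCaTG
Fabp5: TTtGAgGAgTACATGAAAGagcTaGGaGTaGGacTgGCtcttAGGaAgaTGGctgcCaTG
Fabp7: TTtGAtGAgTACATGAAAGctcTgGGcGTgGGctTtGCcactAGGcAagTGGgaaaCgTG
No run of 50 bases of Fabp4 or Fabp7 occurred in another annotated gene, so reads of that length can be told apart in spite of this likeness. For Fabp5, 5.48% of the 50-base runs also occurred in one or more of 5 other genes, the most often Gm6166, which was listed at up to 8.49 TPM. For Slc27a2, 9.81% were shared with Gm26697, a non-coding gene on the opposite strand (up to 1.56 TPM), and whether reads were counted by strand is not given in the sources used here.

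Values are TPM, the share of a gene among the transcripts of a library after scaling by its length, with every library set to a total of 1000000. Libraries held about 18.1 to 35.8 M counted reads (median 23.9 M), as read from the spacing of the low TPM values. The lowest value of any member, Fabp7 at 0.575 TPM in 1 W/F chow mouse, rested on 6 reads, and all Fabp1 values rested on 9538 reads or more. Because TPM is a share of the library, a wide change of other genes moves every value: the median tested gene differed by 0.52 and 0.70 on the log2 scale in W/F and in F/F, each set against controls on vehicle, and by -0.49 and -0.24 with T0901317 in W/F and F/F. A second scaling by median ratios was therefore run throughout, and each member's difference that lost its call with it is named. Hepatocyte markers (8 genes, such as albumin) summed to 79654 to 101518 TPM in W/W on vehicle and 36009 to 40521 TPM in F/F on vehicle, and each of the 8 was at 248 TPM or more in every library. In whole liver, fewer cells of a type and less RNA per cell cannot be told apart.

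Fabp1 was the most abundant member in every library, between 2007 and 18539 TPM, and in W/W mice on T0901317 it made up 1.68% of all transcripts. Slc27a2 ranged from 323 to 1318 TPM, Fabp2 from 31.3 to 638, Cd36 from 6.44 to 232, Fabp5 from 4.09 to 203, Fabp4 from 2.01 to 36.3 and Fabp7 from 0.575 to 24.6. These levels are per length, and the order of Fabp4 and Fabp5 in it is open to the annotation: a retained-intron transcript lengthens the merged exons of Fabp4 to 4489 bases, 5.01 times its spliced mRNA, and those of Fabp5 to 3567 bases, 3.61 times. Ratios of TPM between groups within a gene do not depend on this. The log2 differences below, taken after adding 1 to the TPM, do, and a longer length makes them smaller. The shares of summed TPM that follow also depend on the lengths. Of the summed TPM of the 5 binding proteins, Fabp1 took 95.2 to 95.7% in W/W on T0901317. It took 86.7 to 93.4% in W/F on vehicle and 88.4 to 91.4% in F/F on vehicle, below the 94.6% or more of every library in the other 7 groups. In those groups of mutants on vehicle, Fabp5 held 2.10 to 6.33% and 4.52 to 6.32%, against 0.0758 to 0.151% in W/W on vehicle.

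**Figure D1:**
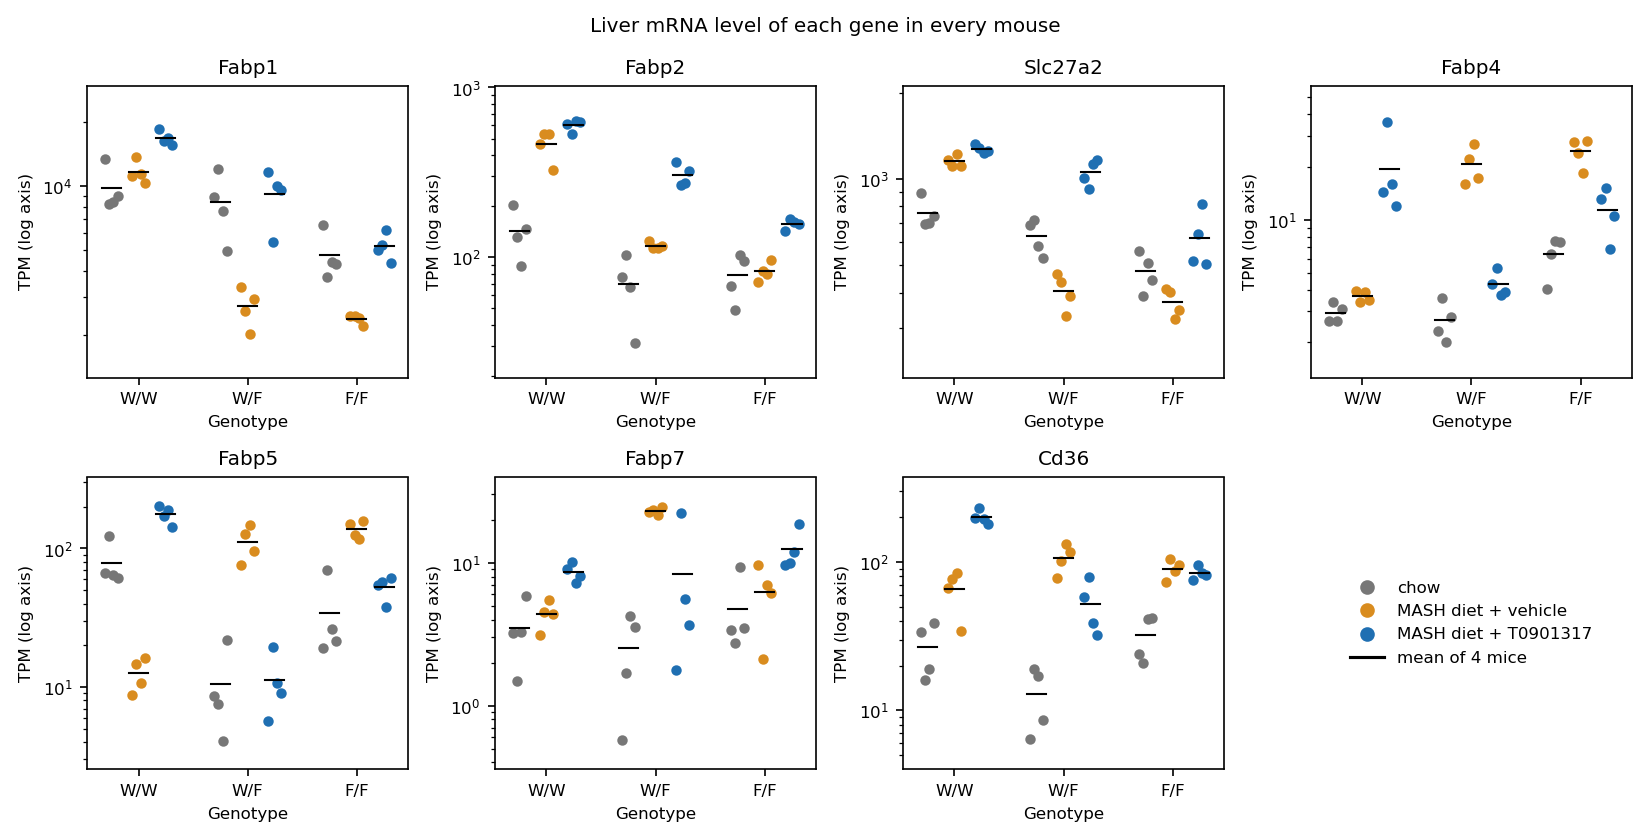
TPM of each gene (log axis) in every mouse, by genotype on the horizontal axis and treatment by colour, with a line at the mean of 4 mice. Fabp1 and Slc27a2 have their lowest means in W/F and F/F on vehicle, and Fabp2 in W/F on chow. Fabp4 and Fabp5 have their highest means in W/F and F/F on vehicle and in W/W on T0901317, and their lowest in W/F on chow.

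T0901317 raised Fabp4, Fabp5 and Cd36 in control livers, and in mutant livers it lowered Fabp4 and Fabp5 and raised Fabp1, Fabp2 and Slc27a2. Differences are on the log2(TPM + 1) scale and are given ± their standard error from limma, and a gene was called where its Benjamini-Hochberg adjusted p was under 0.05. In W/W 3 of the 7 members rose and none fell, where 7.87% of all tested genes rose and 2.91% fell. In W/F Fabp1, Fabp2 and Slc27a2 rose, against 6.59% of all genes, and Fabp4, Fabp5, Fabp7 and Cd36 fell, against 59.3%. After rescaling, those shares of all genes were 23.6% and 27.1%, and 3 members rose and 3 fell. In F/F Fabp1, Fabp2 and Slc27a2 rose, against 3.95% of all genes, and Fabp4 and Fabp5 fell, against 31.2%. After rescaling the shares were 8.32% and 7.98% and the same 5 members were called. With TPM as deposited, a fall was thus common among all genes in both mutants and a rise was not, and after rescaling the directions were about equally common. The response itself, tested as the difference between genotypes, differed from W/W for all 7 in W/F (58.5% of all genes) and for Fabp4, Fabp5, Cd36 and Slc27a2 in F/F (30.4%).

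The diet, given with vehicle, also moved these genes differently by genotype. In W/W it raised Fabp2, Cd36 and Slc27a2, where 2.59% of all genes rose, and lowered Fabp5, where 10.3% fell. In W/F Fabp1 and Slc27a2 fell, against 8.53% of all genes, and the other 5 members rose, against 52.4%. In F/F Fabp1 and Slc27a2 fell, against 9.27%, and Fabp4, Fabp5 and Cd36 rose, against 46.5%. After rescaling, 27.9% and 27.0% of all genes rose and fell in W/F and 25.7% and 21.3% in F/F. The response to the diet differed from W/W for all 7 in W/F (54.6% of all genes) and for Fabp1, Fabp2, Fabp4, Fabp5 and Slc27a2 in F/F (46.0%). The diet and T0901317 comparisons share the vehicle libraries, so a high or low vehicle group enters both with opposite sign.

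**Figure D2:**
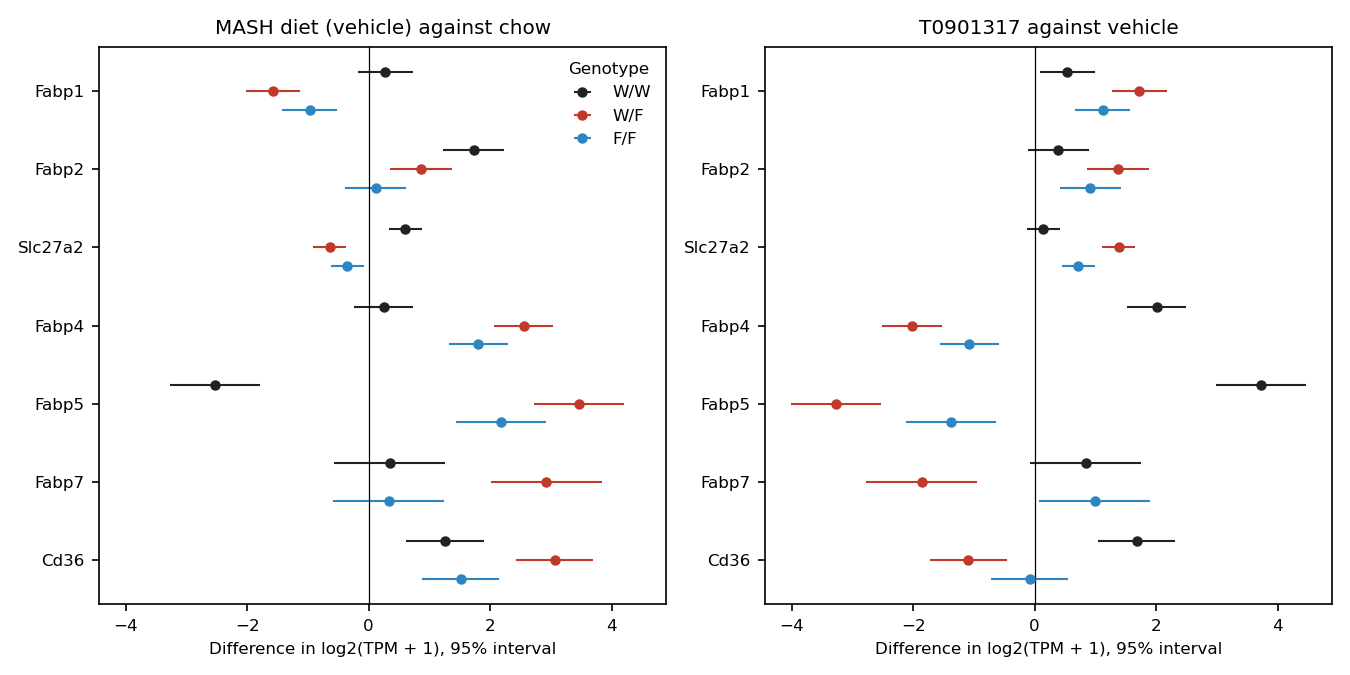
Difference in log2(TPM + 1), with its 95% interval from the fit over all 36 libraries, for the diet with vehicle against chow (left) and for T0901317 against vehicle (right), by genotype in colour. With T0901317 the W/W points of Fabp4 and Fabp5 lie at 2.01 and 3.73 and the W/F points at -2.02 and -3.27.

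Fabp5 moved the most. On T0901317 the 4 W/W livers held 203, 171, 189 and 142 TPM, and on vehicle 8.79, 14.6, 10.8 and 16.1 TPM. The groups lay far apart, with a mean 14.0-fold higher on the agonist and a log2 difference of 3.73 ± 0.36 (adjusted p = 1.09e-08). In W/F the order was turned round, with 5.73, 19.4, 10.7 and 9.12 TPM on T0901317 and 75.7, 127, 147 and 95.3 TPM on vehicle. Every W/F liver on the agonist was below every one on vehicle, with a mean 9.90-fold lower and a log2 difference of -3.27 ± 0.36 (adjusted p = 8.57e-09). F/F livers moved the same way by less, from 151, 126, 118 and 157 TPM on vehicle to 54.3, 57.1, 38.0 and 61.2 TPM on T0901317, again without overlap, and the log2 difference was -1.38 ± 0.36 (adjusted p = 0.00471). The W/F response differed from that of W/W by -7.00 (adjusted p = 2.16e-11), the F/F response from that of W/W by -5.11 (adjusted p = 3.15e-08), and the F/F response from that of W/F by 1.88 (adjusted p = 0.0113, 19.2% of all genes called).

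On chow Fabp5 was high in controls, at 66.0, 122, 64.7 and 61.1 TPM, and low in heterozygotes, at 8.67, 7.60, 4.09 and 21.7 TPM, with F/F between at 19.2, 70.4, 26.2 and 21.4 TPM. The W/F and W/W libraries did not overlap, whereas 1 F/F library lay within the range of W/W. From chow to the diet, Fabp5 fell in W/W by 2.52 on the log2 scale (adjusted p = 2.68e-05). It rose in W/F by 3.46 ± 0.36 (adjusted p = 1.81e-09) and in F/F by 2.17 ± 0.36 (adjusted p = 8.82e-06). Across the 9 groups the mean level spanned 16.7-fold. The highest groups, W/W on T0901317, F/F on vehicle and W/F on vehicle, overlapped their neighbours in that order, and W/W on vehicle, W/F on T0901317 and W/F on chow formed the low end, also overlapping.

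Between W/F and W/W on chow 0.198% of all genes were higher and 0.288% lower in W/F, and of the 7 members 0 were higher and 2 lower. Fabp5 was one of the 2, at -2.94 ± 0.36 (adjusted p = 1.45e-05). That call was lost when only the libraries of those groups entered the fit, with an adjusted p of 0.157 at the same difference. The other, Fabp2, is described below. On chow Fabp5 was lower in F/F than in W/W, at -1.31 ± 0.36 (adjusted p = 0.00404) and higher than in W/F, at 1.63 ± 0.36 (adjusted p = 7.01e-04). On vehicle its differences from W/W were 3.04 ± 0.36 (adjusted p = 1.92e-08) in W/F and 3.38 ± 0.36 (adjusted p = 1.15e-09) in F/F, and on T0901317 they were -3.96 ± 0.36 (adjusted p = 1.81e-09) in W/F and -1.73 ± 0.36 (adjusted p = 1.43e-04) in F/F. The sign of the genotype difference in Fabp5 was thus positive on vehicle and negative on chow and on T0901317, in both mutants.

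Fabp4, its neighbour on chromosome 3, changed in the same directions with T0901317 at a lower level. In W/W it was 3.93, 3.40, 3.88 and 3.48 TPM on vehicle and 14.3, 36.3, 15.9 and 11.9 TPM on T0901317. Replicate 2 on the agonist was high, and all 4 lay above vehicle, with a difference of 2.01 ± 0.24 (adjusted p = 4.38e-07). In W/F Fabp4 went from 16.1, 22.3, 27.2 and 17.3 TPM on vehicle to 4.30, 5.31, 3.71 and 3.85 TPM on T0901317, and in F/F from 27.7, 23.9, 18.4 and 28.2 to 13.2, 15.1, 6.84 and 10.6 TPM. Both falls were without overlap, at -2.02 ± 0.24 (adjusted p = 2.47e-08) in W/F and -1.07 ± 0.24 (adjusted p = 0.00133) in F/F. The responses of W/F and F/F differed from that of W/W by -4.03 (adjusted p = 2.13e-10) and -3.08 (adjusted p = 1.46e-07). The F/F and W/F responses differed by 0.95 ± 0.34 (adjusted p = 0.0468), which became 0.67 (adjusted p = 0.159) after rescaling, and the call also ended without any 1 of 11 libraries.

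With the diet Fabp4 departed from Fabp5 in the controls: W/W livers had 2.63 to 3.38 TPM on chow and 3.40 to 3.93 TPM on vehicle, a difference of 0.25 ± 0.24 (adjusted p = 0.581) that was not called, although all 4 vehicle values were above those of chow. W/F livers had 2.01 to 3.60 TPM on chow and 16.1 to 27.2 TPM on vehicle, a rise of 2.55 ± 0.24 (adjusted p = 1.78e-10). F/F livers had 4.03 to 7.62 TPM on chow and 18.4 to 28.2 TPM on vehicle, a rise of 1.80 ± 0.24 (adjusted p = 2.45e-07). F/F livers on chow already held more Fabp4 than W/W by 0.88 ± 0.24 (adjusted p = 0.00362), without overlap, but the difference was 0.57 (adjusted p = 0.0561) after rescaling. On vehicle Fabp4 was higher than in W/W by 2.19 ± 0.24 (adjusted p = 3.58e-09) in W/F and 2.43 ± 0.24 (adjusted p = 1.84e-10) in F/F. On T0901317 W/F was lower than W/W, at -1.84 ± 0.24 (adjusted p = 1.64e-06). F/F was lower too, at -0.65 ± 0.24 (adjusted p = 0.0192), with overlap, and this became -0.32 (adjusted p = 0.186) without the W/W library at 36.3 TPM and -0.44 (adjusted p = 0.112) without the F/F library at 6.84 TPM.

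Markers of lipid-associated macrophages (Gpnmb, Trem2, Spp1, Cd9, Lgals3, Mmp12 and Itgax) moved with Fabp4 and Fabp5 in the mutants. Their summed level was 65.6 to 174 TPM in W/F on chow, 2235 to 2528 on vehicle and 121 to 444 on T0901317, and 804 to 1140.1, 4314 to 4958 and 1129.9 to 2206 TPM in F/F. All 7 markers rose with the diet in both mutants, where 52.4% of all genes rose in W/F and 46.5% in F/F. With T0901317 7 fell in W/F and 5 in F/F, against 59.3% and 31.2% of all genes. After rescaling, Gpnmb and Trem2 lost the call in F/F, which left Spp1, Cd9 and Lgals3, against 7.98% of all genes. General macrophage and monocyte markers (6 genes, such as Cd68 and Csf1r) summed to 2479 to 3288 TPM in W/F and 3099.9 to 4039.9 TPM in F/F on vehicle, against 84.1 to 211 TPM in W/W. Their part in the mutant results was not tested. In W/W the lists behaved otherwise: the lipid-associated list summed to 71.3 to 77.9 TPM on vehicle and 132 to 227 TPM on T0901317, with Spp1 and Cd9 called higher, and the general list to 84.1 to 211 and 97.4 to 214 TPM with 0 of 6 called. In Fabp5, W/W livers on T0901317 overlapped F/F livers on vehicle. On chow the lipid-associated list summed to 61.1 to 81.6 TPM in W/W, where Fabp5 was 61.1 to 122 TPM. In F/F on chow, with the list at 804 to 1140.1 TPM, Fabp5 was 19.2 to 70.4 TPM. With the diet in W/W Fabp5 fell, and 0 of the 7 lipid-associated markers were called in either direction. Adipocytes also make Fabp4, and of 6 adipocyte markers Adipoq, Plin1 and Retn reached at most 0.248, 0.147 and 0.507 TPM in any library and Lep was listed at 0 in all 36, whereas Cidec reached 164 TPM and Cfd 390.0 TPM. Their sum in W/W was 5.04 to 24 TPM on chow, 120.0 to 424 TPM on vehicle and 179 to 220.1 TPM on T0901317. On vehicle it was 19.2 to 32.2 TPM in W/F and 37.3 to 57.9 TPM in F/F. Cidec and Cfd, which passed the level for testing, both rose with the diet in W/W. With T0901317 Cidec rose there and Cfd was not called. After rescaling, 1 of these 2 was higher and 1 lower with T0901317 in W/W. The part of the macrophage and adipocyte markers in the W/W results was not tested.

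**Figure D3:**
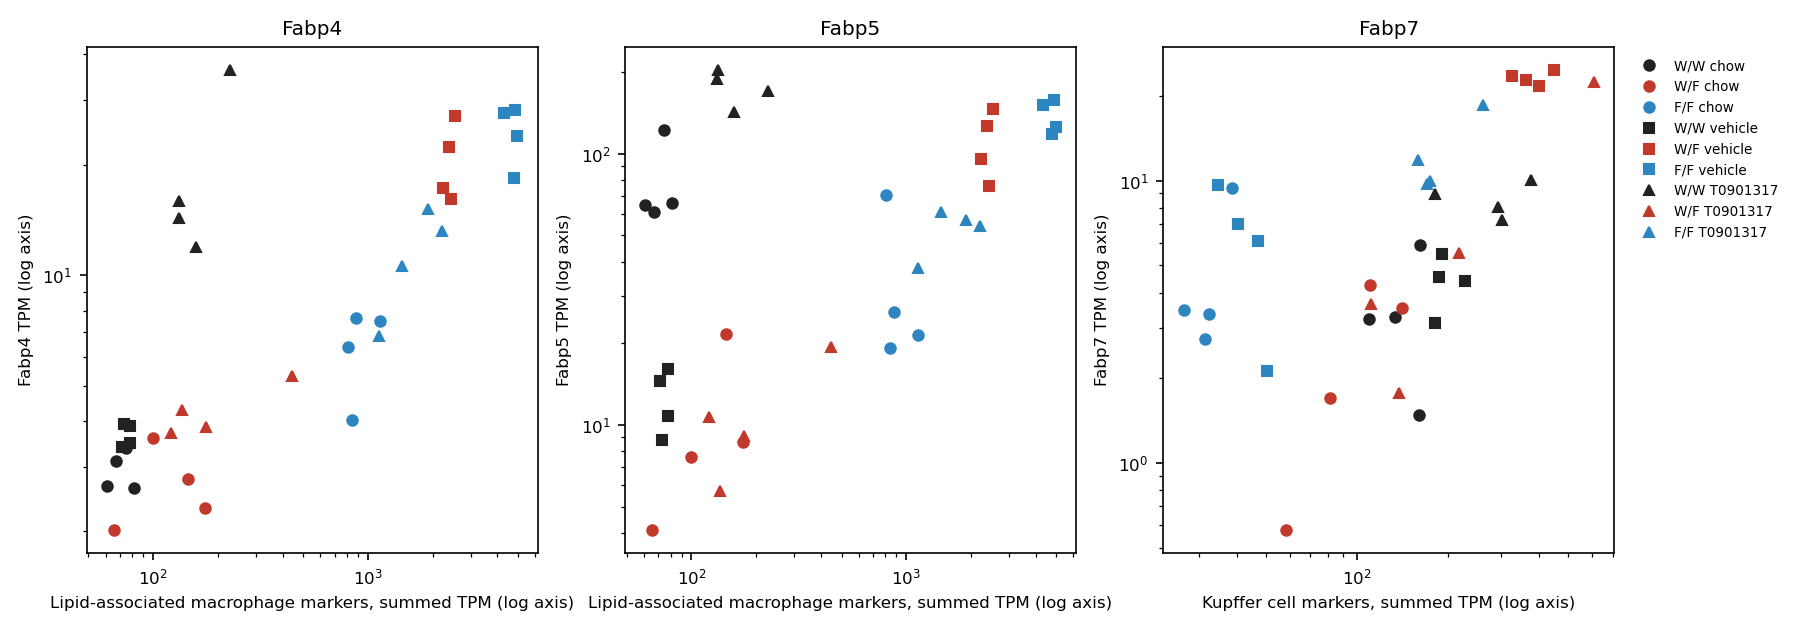
TPM of Fabp4, Fabp5 and Fabp7 (vertical, log axis) against the summed TPM of the lipid-associated macrophage markers or, for Fabp7, of the Kupffer cell markers (horizontal, log axis), 1 point a library, with genotype by colour and treatment by shape. For Fabp4 and Fabp5 the mutants run from low to high along both axes, and the W/W libraries on T0901317 (black triangles) lie at the upper left, with marker sums of 132 to 227 TPM. For Fabp5 the W/W libraries on chow (black circles), at 61.1 to 122 TPM, have marker sums of 61.1 to 81.6 TPM.

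Fabp7 had its own pattern, with one high group. W/F livers on vehicle held 22.8, 23.5, 21.7 and 24.6 TPM, above every library of the other vehicle groups, which were 3.14, 4.53, 5.48 and 4.40 TPM in W/W and 9.64, 2.12, 7.03 and 6.12 TPM in F/F. It was the one member for which F/F and W/F on vehicle were called different, lower in F/F at -1.87 ± 0.45 (adjusted p = 0.00347), where 19.0% of all genes were higher and 2.30% lower. W/F exceeded W/W on vehicle by 2.18 ± 0.45 (adjusted p = 8.28e-05), while F/F and W/W differed by 0.31 (95% interval -0.60 to 1.22), which was not called and was below 0 after rescaling. With the diet Fabp7 rose in W/F from 0.575, 1.70, 4.26 and 3.54 TPM on chow, by 2.93 ± 0.45 (adjusted p = 1.52e-06), and was not called in W/W (0.34, 95% interval -0.57 to 1.26) or F/F (0.33, -0.58 to 1.24). The W/F response to the diet exceeded those of W/W and F/F, and F/F minus W/F was -2.59 (adjusted p = 0.0105), in a comparison that called 6.83% of all genes.

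T0901317 left the W/F livers divided in Fabp7, at 1.77, 22.3, 5.54 and 3.65 TPM: 3 libraries were low and replicate 2 stayed within the vehicle range. The log2 difference was -1.86 ± 0.45 (adjusted p = 5.67e-04). In W/W and F/F all 4 agonist libraries were above those on vehicle, at 8.97, 10.0, 7.26 and 8.05 TPM in W/W and 9.69, 9.99, 11.9 and 18.6 TPM in F/F. The differences of 0.84 ± 0.45 (adjusted p = 0.266) in W/W and 0.99 ± 0.45 (adjusted p = 0.0815) in F/F were not called. With only those libraries fitted, the adjusted p in W/W was 0.0170. The F/F difference was 1.22 (adjusted p = 0.0489) without F/F vehicle replicate 1. The F/F response exceeded that of W/F by 2.85 ± 0.63 (adjusted p = 0.00270). On T0901317 F/F and W/F differed by 0.98 ± 0.45 (adjusted p = 0.0570), and without W/F replicate 2 by 1.58 (adjusted p = 9.70e-04).

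Kupffer cell markers (Clec4f, Timd4, Vsig4, Cd5l, Marco and Adgre1) had their highest sums in some of the same libraries. They summed to 138, 607, 217 and 111 TPM in W/F replicates 1 to 4 on T0901317, so that the library high in Fabp7 was also high in these markers. Other macrophage lists also spread widely in that group. General macrophage and monocyte markers summed to 90.4 to 812 TPM (median 111), and lipid-associated macrophage markers to 121 to 444 TPM (median 156). The Kupffer cell marker sums were 326 to 448 TPM in W/F on vehicle, 34.5 to 50.4 in F/F on vehicle and 159 to 261 in F/F on T0901317. Single markers differed in direction: on vehicle Cd5l and Adgre1 were higher and Clec4f and Timd4 lower in W/F than in W/W. With T0901317 in W/F, Clec4f and Timd4 rose and Cd5l and Adgre1 fell, and Cd5l was not called after rescaling. In F/F with T0901317, Clec4f, Vsig4 and Cd5l rose and Adgre1 fell, of 6 markers, and Adgre1 was not called after rescaling. W/W on vehicle, low in Fabp7, summed to 181 to 227 TPM and F/F on vehicle, with similar Fabp7, to the lower values above, so the order of the groups was not the same. The part of these cells in the Fabp7 result was not tested.

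Cd36 rose with T0901317 in controls, and the response of each mutant was lower than theirs. W/W livers held 66.5, 76.5, 84.3 and 34.1 TPM on vehicle and 197, 232, 196 and 180.0 TPM on T0901317, without overlap, a 3.08-fold higher mean and a log2 difference of 1.68 ± 0.31 (adjusted p = 3.53e-04). W/F livers held 78.0, 102, 132 and 116 TPM on vehicle and 57.7, 78.8, 38.8 and 32.2 TPM on T0901317, which overlapped in 1 library each. That difference was -1.09 ± 0.31 (adjusted p = 0.00293), but -0.49 (adjusted p = 0.194) after rescaling. In F/F Cd36 was 73.3, 105, 86.9 and 95.4 TPM on vehicle and 75.6, 95.9, 84.8 and 82.0 TPM on T0901317, a difference of -0.08 with a 95% interval of -0.72 to 0.55 that leaves out the rise seen in W/W. The response of W/F minus that of W/W was -2.77 ± 0.44 (adjusted p = 5.28e-06) and the response of F/F minus that of W/W was -1.76 ± 0.44 (adjusted p = 0.00378), and both calls were kept after rescaling.

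The diet raised Cd36 in all genotypes. On chow W/W livers held 33.9, 16.1, 19.1 and 38.6 TPM, W/F livers 6.44, 19.1, 17.1 and 8.60 TPM and F/F livers 23.8, 21, 41.6 and 41.7 TPM. The rise was 1.26 ± 0.31 (adjusted p = 0.00710) in W/W, 3.06 ± 0.31 (adjusted p = 9.85e-10) in W/F and 1.52 ± 0.31 (adjusted p = 1.36e-04) in F/F. The W/W rise, in which 1 vehicle library overlapped chow, had an adjusted p of 0.0976 when only those libraries were fitted. The W/F rise exceeded that of W/W by 1.80 ± 0.44 (adjusted p = 0.00106), and the F/F rise minus the W/F rise was -1.55 ± 0.44 (adjusted p = 0.0289), which was lost with no filter on low values (-1.55, adjusted p = 0.0570) and without any 1 of 7 libraries. On vehicle W/F exceeded W/W by 0.76 ± 0.31 (adjusted p = 0.0327), which became 0.10 (adjusted p = 0.816) after rescaling and 0.47 (adjusted p = 0.183) without the W/W library at 34.1 TPM, and was also lost without W/F vehicle replicate 3 or 4. On T0901317 both mutants were below W/W without overlap, at -2.01 ± 0.31 (adjusted p = 3.02e-05) in W/F and -1.24 ± 0.31 (adjusted p = 0.00103) in F/F. F/F exceeded W/F there by 0.77 ± 0.31 (adjusted p = 0.0319), but by 0.24 (adjusted p = 0.578) after rescaling, and the call also ended without any 1 of 4 libraries. Endothelial markers, of another cell type rich in Cd36, summed to 110.1 to 117 TPM in W/W on vehicle and 113 to 173 TPM on T0901317. There 1 of 8 was called higher, against 7.87% of all genes. With T0901317 in W/F 3 of the 8 rose and 1 fell, against 6.59% and 59.3% of all genes. After rescaling 6 of the 8 rose and 0 fell, against 23.6% and 27.1%. The part of this change in the Cd36 result was not tested.

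Fabp1, Fabp2 and Slc27a2, the hepatocyte members, shared a direction: all 3 were lower in mutants than in controls on vehicle, and T0901317 raised them in mutants. Fabp1 was 11115, 13795, 11435 and 10319 TPM in W/W on vehicle, 3359.8, 2597, 2007 and 2949.7 TPM in W/F and 2460.1, 2455, 2385 and 2198 TPM in F/F. Neither mutant overlapped W/W, and the mutants overlapped each other. The mean was 4.28-fold lower in W/F and 4.91-fold lower in F/F, with log2 differences of -2.11 ± 0.22 (adjusted p = 1.70e-09) and -2.29 ± 0.22 (adjusted p = 1.39e-10). On vehicle 3 of the 7 members were lower and 4 higher in W/F than in W/W, against 6.83% of all genes lower and 61.6% higher. In F/F 3 were lower and 2 higher, against 7.13% lower and 69.3% higher. After rescaling 27.6% and 25.5% of all genes were higher and lower in W/F and 31.0% and 28.1% in F/F, and the 3 members stayed called. The differences of Fabp2 were -1.96 and -2.46 (adjusted p = 5.16e-08 and 3.07e-10), with 326 to 534 TPM in W/W, 113 to 124 in W/F and 71.9 to 96.7 in F/F. The differences of Slc27a2 were -1.51 and -1.64 (adjusted p = 5.37e-11 and 3.67e-12), with 1103 to 1224, 330.4 to 463 and 323 to 411 TPM. None of these 6 comparisons had overlapping libraries. The hepatocyte marker sum was also lower in the mutants on vehicle, at 59888 to 69174 TPM in W/F and 36009 to 40521 TPM in F/F against 79654 to 101518 TPM in W/W, and its part in these differences was not tested.

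With T0901317 Fabp1 rose in W/F to 11676, 5446, 10033 and 9570.4 TPM and in F/F to 4998, 5296, 6246 and 4327 TPM, by 1.72 ± 0.22 (adjusted p = 1.03e-07) and 1.12 ± 0.22 (adjusted p = 4.38e-04). In W/W it was 18539, 16326, 16794 and 15661 TPM, every library above those on vehicle, but the difference of 0.53 ± 0.22 (adjusted p = 0.130) was not called over all genes, and with only those libraries fitted the adjusted p was 0.0410. Fabp2 rose by 1.37 in W/F and 0.92 in F/F (adjusted p = 1.70e-05 and 0.00564), to 265 to 365 and 142 to 167 TPM. In W/W Fabp2 was 533 to 638 TPM, overlapping vehicle, at 0.39 ± 0.25 (adjusted p = 0.374). Slc27a2 rose by 1.38 in W/F and 0.72 in F/F (adjusted p = 6.97e-10 and 2.14e-04), to 917 to 1159 and 505 to 815 TPM. In W/W it was 1232 to 1318 TPM, a difference of 0.15 (95% interval -0.12 to 0.42). The rise in W/F exceeded that in W/W by 1.19 ± 0.31 (adjusted p = 0.00180) for Fabp1, 0.98 ± 0.35 (adjusted p = 0.0169) for Fabp2 and 1.24 ± 0.19 (adjusted p = 2.65e-06) for Slc27a2. In F/F the excess was called for Slc27a2, at 0.57 ± 0.19 (adjusted p = 0.0216), and became 0.43 (adjusted p = 0.0745) without F/F T0901317 replicate 3 and 0.51 (adjusted p = 0.0501) without F/F vehicle replicate 3. Slc27a2 also rose less in F/F than in W/F, with a difference of -0.67 ± 0.19 (adjusted p = 0.0139). Hepatocyte markers moved with these rises: with T0901317 their sum went to 53841 to 72425 TPM in F/F, where 5 of 8 rose and none fell, and to 58888 to 85505 TPM in W/F, where 4 rose and 2 fell. Of all genes 3.95% rose and 31.2% fell in F/F, and 6.59% rose and 59.3% fell in W/F. After rescaling 7 of the 8 markers rose in F/F and 5 in W/F, with none lower, against 8.32% and 23.6% of all genes higher. The part of these markers in the rises was not tested.

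On T0901317 Fabp1, Fabp2 and Slc27a2 were closer to controls in heterozygotes than in homozygotes. Of the 7 members 5 were lower in W/F than in W/W and none higher, against 6.23% of all genes lower and 3.65% higher. In F/F 6 were lower and none higher, against 6.96% lower and 56.3% higher, and after rescaling 24.2% and 22.7% of all genes were higher and lower. The differences of Fabp1 were -0.93 ± 0.22 (adjusted p = 0.00518) in W/F and -1.70 ± 0.22 (adjusted p = 1.77e-07) in F/F, and the former had an adjusted p of 0.0630 with only those libraries fitted. For Fabp2 they were -0.98 ± 0.25 (adjusted p = 0.00850) and -1.93 ± 0.25 (adjusted p = 1.29e-07). For Slc27a2 the W/F difference of -0.28 (95% interval -0.55 to -0.01) was not called, and the F/F difference was -1.06 ± 0.13 (adjusted p = 8.78e-08). Against W/F on T0901317, F/F was lower in Fabp1 (-0.77), Fabp2 and Slc27a2, where 4.08% of all genes were lower, and higher in Fabp4, Fabp5 and Cd36, where 58.5% were higher. The differences were -0.96 for Fabp2, -0.79 for Slc27a2, 1.19 for Fabp4 and 2.23 for Fabp5, and after rescaling 21.5% and 18.9% of all genes were higher and lower.

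With the diet Fabp1 fell in W/F from 8867, 12091, 7658 and 4945 TPM on chow, at -1.57 ± 0.22 (adjusted p = 3.90e-07), and in F/F from 6543, 3736, 4416 and 4281 TPM, at -0.97 ± 0.22 (adjusted p = 4.62e-04). In W/W it went from 13442, 8271, 8453 and 8972 TPM, with 1 library apart from the others, to the vehicle values above, a difference of 0.28 (95% interval -0.18 to 0.73). In W/W Fabp2 was 88.5 to 204 TPM on chow and 326 to 534 TPM on vehicle, a rise of 1.73 ± 0.25 (adjusted p = 2.44e-05). In W/F it was 31.3 to 103 TPM on chow and 113 to 124 TPM on vehicle. That rise was 0.86 ± 0.25 (adjusted p = 0.00336), which became 0.36 (adjusted p = 0.238) after rescaling. In F/F it was 49.0 to 103 TPM on chow, a difference of 0.12 (95% interval -0.39 to 0.62). On chow Slc27a2 ranged over 695 to 891 TPM in W/W, 530.1 to 718 TPM in W/F and 390.2 to 559.9 TPM in F/F. On vehicle the ranges were 1103 to 1224, 330.4 to 463 and 323 to 411 TPM. Slc27a2 thus rose in W/W by 0.61 ± 0.13 (adjusted p = 0.00255). It fell in W/F, at -0.64 ± 0.13 (adjusted p = 1.22e-04), and in F/F, at -0.35 ± 0.13 (adjusted p = 0.0254). The F/F call ended when any of 4 chow or vehicle libraries was left out, the smallest difference being -0.27 (adjusted p = 0.111) without chow replicate 1. The diet response of all 3 genes was lower in W/F and in F/F than in W/W, with differences of -1.85 and -1.24 for Fabp1, -0.87 and -1.61 for Fabp2 and -1.25 and -0.96 for Slc27a2. For Fabp2 in W/F that call was lost with only the groups compared (adjusted p = 0.0991) or with no filter (adjusted p = 0.0702), and without any 1 of 10 libraries. Hepatocyte markers fell with the diet in the same groups, 5 of the 8 in heterozygotes and 7 in homozygotes with none higher, from sums of 65473 to 101301 TPM and 72975 to 92164 TPM on chow. Of all genes 8.53% fell with the diet in heterozygotes and 9.27% in homozygotes. After rescaling all 8 markers fell in each mutant, against 27.0% and 21.3% of all genes. The part of these markers in the falls was not tested.

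On chow, F/F was lower than W/W in Fabp1, at -1.05 ± 0.22 (adjusted p = 3.60e-04), Fabp2, at -0.85 ± 0.25 (adjusted p = 0.00621), and Slc27a2, at -0.68 ± 0.13 (adjusted p = 1.56e-04). With Fabp5, 4 of the 7 members were lower there and 1, Fabp4, higher, against 3.65% of all genes lower and 43.0% higher, and 15.9% and 14.0% higher and lower after rescaling. For Fabp2 the libraries overlapped, and the adjusted p was 0.0562 with only those libraries fitted. Against W/F, F/F was lower in Fabp1, at -0.78 ± 0.22 (adjusted p = 0.00547), and Slc27a2, at -0.41 ± 0.13 (adjusted p = 0.0141), where 3.43% of all genes were lower. Fabp4, Fabp5 and Cd36 were higher, where 37.9% of all genes were higher, and after rescaling 16.5% and 14.7% of all genes were higher and lower. Both of those lower calls were lost with only the libraries compared. W/F on chow was lower than W/W in Fabp2, at -1.09 ± 0.25 (adjusted p = 0.0330), with overlap. This became -0.75 (adjusted p = 0.230) without W/F chow replicate 4, and the call also ended without any 1 of 4 other libraries. Fabp1 and Slc27a2 differed there by -0.26 (95% interval -0.72 to 0.19) and -0.27 (-0.54 to 0.00), not called over all genes. Enterocytes are the usual source of Fabp2, and of 5 enterocyte markers Sis, Lct and Alpi reached at most 0.481, 0.129 and 0.552 TPM, Cdh17 2.47 TPM and Vil1 3.32 TPM. The markers summed to 3.55 to 5.65 TPM in F/F on vehicle and to 0 to 0.183 TPM in W/W on T0901317, the group with the highest mean Fabp2. Cdh17 and Vil1, the 2 tested, rose with the diet and fell with T0901317 in both mutants. In W/F and F/F 52.4% and 46.5% of all genes rose with the diet, and 59.3% and 31.2% fell with T0901317. The part of these markers in the Fabp2 results was not tested.

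**Figure D4:**
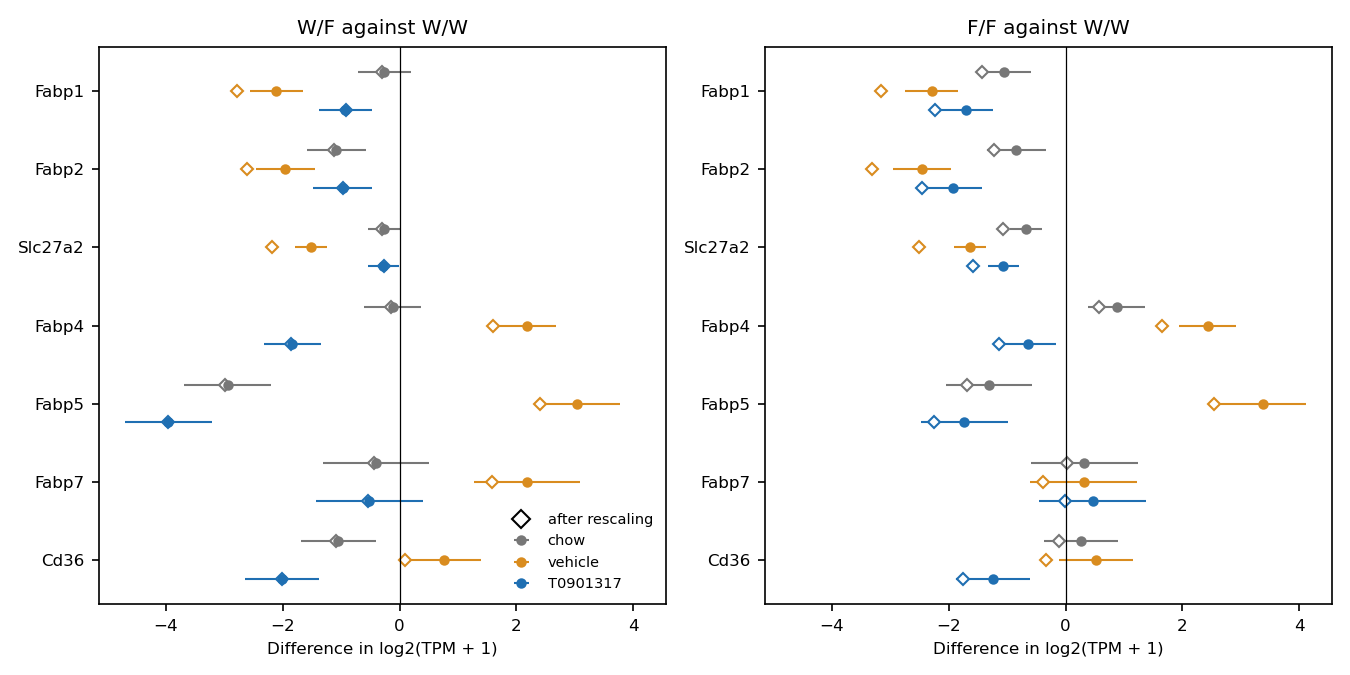
Difference in log2(TPM + 1) of W/F (left) and F/F (right) from W/W, with treatment by colour. Filled points with 95% intervals use the TPM as deposited, and open diamonds the same values after rescaling by median ratios: the diamonds of vehicle lie further left than the points, and Cd36 on vehicle is near 0 in W/F.

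Fabp1 and Fabp2 were both lower in the mutants on vehicle, and the bases before their starts are given from RefSeq (GRCm38.p6, plus strand) because the motifs of nuclear receptors were searched there. The table held entries for 5 of the 7 members. The motifs were AGGTCA, the core hexamer that LXR, PPAR and related receptors share, its direct repeats AGGTCANAGGTCA (DR1, known from PPAR) and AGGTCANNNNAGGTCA (DR4, known from LXR), and TATAAA, on both strands of 250 bases before to 50 after the start. Fabp1 is shown up to the first exon base of M21, at chr6:71199629-71199826, with a DR1 that has 1 mismatch, on the opposite strand, in capitals. Fabp2, at chr3:122894822-122895071, held none of the motifs.
Fabp1: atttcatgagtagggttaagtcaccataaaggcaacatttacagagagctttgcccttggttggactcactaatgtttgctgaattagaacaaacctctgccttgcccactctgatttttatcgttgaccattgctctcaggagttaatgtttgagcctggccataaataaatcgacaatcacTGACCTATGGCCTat
Fabp2: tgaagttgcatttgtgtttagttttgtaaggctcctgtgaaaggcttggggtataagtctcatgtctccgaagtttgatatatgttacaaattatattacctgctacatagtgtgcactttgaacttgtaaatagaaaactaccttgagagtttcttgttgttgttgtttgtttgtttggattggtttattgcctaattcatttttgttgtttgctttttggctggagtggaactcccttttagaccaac
A DR1 with at most 1 mismatch was found in 0.554% of 32851 promoters of that length, an exact DR1 in 0.040% and an exact DR4 in 0.015%. The Fabp1 match lay 67 to 55 bases before the RefSeq start, which differs from the M21 start. The last 52 of the 250 bases before the RefSeq start lie in the M21 exon and are not shown. The hexamer of the match that lies farther from the start is itself an exact AGGTCA on that strand. Fabp1 had a second AGGTCA and a TATAAA closer to the RefSeq start, in the part within the M21 exon. Fabp7, Cd36 and Slc27a2 each held 1 AGGTCA, which 16.3% of all promoters held, and neither repeat. Of the 250 bases before the RefSeq start, all 250 of Slc27a2 and 42 of Fabp7 lay in M21 exons. Those of Cd36 (chr5:17835897-17836146) lay inside its M21 gene span. For Cd36 and Slc27a2 the bases searched were therefore not those before the M21 start.

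The other genes of the pathway were read from lists. Of 12 tested PPARalpha targets, 7 rose with T0901317 in W/W and none fell, with a median difference of 1.28 against 0.06 over all genes. They included Ehhadh, of peroxisomal beta-oxidation, at 2.37 (adjusted p = 3.70e-10). In W/F 6 rose and 3 fell, from Cyp4a10, a fatty acid hydroxylase, at 3.12 (adjusted p = 1.54e-04) to the hormone Fgf21 at -2.24 (adjusted p = 9.73e-06). In F/F 3 rose and 2 fell. After rescaling 9 rose and 2 fell in W/F, and 5 rose and 0 fell in F/F. On T0901317, 8 of 12 were lower in W/F than in W/W and 10 in F/F, against 6.23% and 6.96% of all genes. The medians were -1.54 and -1.27 against 0.00 and 0.43 over all genes. Cyp4a14 was the lowest in both, at -3.97 (adjusted p = 0.00290) and -7.11 (adjusted p = 9.53e-08). With the diet 7 rose in W/W and none fell, against 2.59% and 10.3% of all genes.

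The LXR target list (10 genes) gave a reference for the agonist. With T0901317, 7 rose in W/W, 6 rose and 3 fell in W/F, and 8 rose in F/F, with medians of 0.94, 1.17 and 1.13 against 0.06, -0.49 and -0.24 over all genes. Scd1, a desaturase, rose in F/F by 5.36 (adjusted p = 6.23e-14), and Pltp, a phospholipid transfer protein, rose in W/W by 3.32 (adjusted p = 1.39e-07) and fell in W/F, at -1.74 (adjusted p = 1.37e-04). After rescaling 7 rose and 2 fell in W/F, and 10 rose in F/F. Pltp thus had, like Fabp4 and Fabp5, opposite signs in W/W and W/F.

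The other fatty acid transport proteins split by member. Slc27a5, the bile acid and fatty acid ligase of hepatocytes, rose with T0901317 in W/F by 1.25 (adjusted p = 2.16e-10) and in F/F by 1.23 (adjusted p = 3.02e-09), as Slc27a2 did. Slc27a1 rose in W/W by 1.11 (adjusted p = 1.59e-05) and fell in W/F, at -1.12 (adjusted p = 1.01e-06), and in F/F, at -1.02 (adjusted p = 5.34e-05), as Fabp4 did. Of 4 tested, 2 rose in W/W, and 1 rose and 1 fell in each mutant. The medians were 0.38, -0.23 and -0.26 in W/W, W/F and F/F, against 0.06, -0.49 and -0.24 over all genes. After rescaling 2 rose and 1 fell in W/F, and the counts of W/W and F/F were the same. Of the acyl-CoA synthetases and acyl-CoA binding proteins, 5 of 8 rose in W/W, where Acsl3 had the largest difference, 1.59 (adjusted p = 1.52e-07), and 3 rose and 2 fell in each mutant, or 6 and 2 in W/F and 4 and 1 in F/F after rescaling. Acsl1, the main liver synthetase, rose in W/F by 1.82 (adjusted p = 2.64e-08). Of 9 genes of lipid uptake at the cell surface, 4 rose with T0901317 in W/W, led by lipoprotein lipase (Lpl) at 2.72 (adjusted p = 1.32e-07). In W/F 2 rose and 2 fell, with Lpl at -3.01 (adjusted p = 1.42e-09), and after rescaling 5 rose and 1 fell. Of the rest of the binding protein family, Fabp3, the heart form, reached the level for testing. It fell with T0901317 in W/F, at -1.02 (adjusted p = 9.00e-04), and in F/F, at -1.75 (adjusted p = 1.29e-05), and in W/W the difference was 0.25 (adjusted p = 0.641).

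The genes whose level ran closest to each member over the 36 libraries, among 11196 genes with at least 5 TPM in a group, were found by Pearson's r of log2(TPM + 1). The 36 points fall into 9 groups, and the r is a description. For Fabp1 and Slc27a2 the 3 closest included Apoa2, an apolipoprotein of hepatocytes, at r of 0.951 and 0.950, and Fabp1 and Slc27a2 had 0.929 with each other. For Fabp2 they were Hsd17b11 (0.942), 1700080G11Rik (0.920) and Cyp4a10 (0.900). For Fabp4 they were Arhgap27 (0.942), 5031439G07Rik (0.923) and Slc27a1 (0.921). Fabp5 was closest to Gm6166 (0.932), with which it shares sequence, then Atg16l2 (0.900) and Mr1 (0.857). Within groups, on the deviations from the group means, r was 0.755 for Gm6166 and -0.16 for Mr1. For Cd36 the closest was Acot2 (0.937 over all, 0.832 within groups), an acyl-CoA thioesterase, then Tcn2 (0.920) and Sulf2 (0.902). Fabp7 had lower values, of 0.870 for Ear2, 0.859 for Il18bp and 0.848 for Treml4. Fabp4 had r of 0.765 with Fabp5 and 0.770 with Cd36.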

How the data were processed

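PolyA RNA of 36 mouse livers (4 in each of 9 groups) was sequenced, and the authors deposited 1 table of TPM. The submitters' processing notes name Trimmomatic 0.36, STAR 2.5.2b, featureCounts, Subread 1.5.2 and the builds GRCm38 and mm10. The annotation and strand setting are not given in the sources used here. Low TPM values times merged exon lengths of GENCODE M21 were within 0.1 of whole reads for 93.7 to 95.7% of genes under 20 reads in each library (20% by chance), which gave the depths.

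Main test: limma 3.58.1 (R 4.3.3) on log2(TPM + 1), for genes reaching 1 TPM in 4 libraries or more, 1 mean for each of 9 groups, trended empirical Bayes, two-sided, Benjamini-Hochberg over all genes of each of 21 comparisons, called under 0.05. Log2 differences are on the log2(TPM + 1) scale, which understates changes of low genes such as Fabp4 and Fabp7. All 7 members are named, and from each list the genes of largest and smallest called difference without overlap. Alternatives were another pseudocount, filters, rescaled TPM, array weights, no trend, only the groups compared, a replicate block, each library left out and, added after seeing the data, voom on recovered reads and motifs with a mismatch. The fit was tested on simulated data. Members and lists were chosen with earlier results of these data known. Promoters are RefSeq's. Some results are not reported here.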

Additional observations from a re-analysis of the deposited data

Results flagged for a closer look

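In 5 of 63 combinations of gene and group, 1 of the 4 libraries stood apart from the other 3 by more than Dixon's 95% limit, which chance passes in about 1 group in 20. They were Fabp1 in W/W chow replicate 1 (13442 TPM), Fabp4 in W/W T0901317 replicate 2 (36.3 TPM), Fabp5 in W/W chow replicate 2 (122 TPM), Fabp5 in F/F chow replicate 2 (70.4 TPM) and Fabp7 in F/F chow replicate 3 (9.40 TPM).

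Of 42 differences in response between genotypes, 29 were called, all on the log2 scale. Such calls were common among all tested genes. For T0901317 the shares were 58.5% in W/F minus W/W, 30.4% in F/F minus W/W and 19.2% in F/F minus W/F. For the diet they were 54.6%, 46.0% and 6.83% in that order. After rescaling the shares were 43.9%, 17.4% and 14.4% for T0901317 and 40.1%, 26.8% and 8.13% for the diet. The T0901317 response of W/F minus that of W/W was 1.19 for Fabp1, 0.98 for Fabp2, -4.03 for Fabp4, -7.00 for Fabp5, -2.70 for Fabp7, -2.77 for Cd36 and 1.24 for Slc27a2. For F/F minus W/W it was -3.08 for Fabp4, -5.11 for Fabp5, -1.76 for Cd36 and 0.57 for Slc27a2. For F/F minus W/F it was 0.95 for Fabp4, 1.88 for Fabp5, 2.85 for Fabp7 and -0.665 for Slc27a2.

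The diet response of W/F minus that of W/W was -1.85 for Fabp1, -0.87 for Fabp2, 2.30 for Fabp4, 5.98 for Fabp5, 2.58 for Fabp7, 1.80 for Cd36 and -1.25 for Slc27a2. For F/F minus W/W it was -1.24 for Fabp1, -1.61 for Fabp2, 1.56 for Fabp4, 4.70 for Fabp5 and -0.96 for Slc27a2. For F/F minus W/F it was -2.59 for Fabp7 and -1.55 for Cd36.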

How the results depend on the processing

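No called difference of a member changed sign under any alternative run. Of 147 gene and comparison values, all kept their call with a pseudocount of 0.1, a filter at 5 TPM or no variance trend. With rescaled TPM 6 calls ended, with no filter 6, with only the groups compared 9 (and 6 were gained), and with array weights 1 (8 gained). With voom on recovered reads, chosen after seeing the data, 2 ended and 2 were gained. Of 1512 values with 1 library left out, 50 lost and 5 gained a call. The cause was not tested.

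Counts of members called moved as follows. For T0901317 in W/W, 3 became 5 with only the groups compared. In the chow comparison of W/F with W/W, 2 became 1 with no filter, 1 with the replicate block, 0 with only the groups compared and 1 to 2 with a library left out. For F/F against W/F with only the groups compared, 5 became 3 on chow and 1 became 2 on vehicle. For the diet response of F/F minus W/F, 2 became 1 with no filter, 5 with array weights and 1 to 2 with a library left out. Between groups, deviations of libraries with the same replicate number had a mean r of 0.016, over 0.1 in 18 of 144 pairs. With other numbers the mean r was -0.0054, over 0.1 in 38 of 432 pairs. These values do not settle whether the numbers mark a weak pairing. The replicate block ended 1 call, Fabp2 on chow in heterozygotes (adjusted p = 0.051). Fabp7, with as few as 6 reads, is the member whose precision depth limits.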

Other observations

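Few mRNAs of the nuclear receptors reported to act on these genes were called with T0901317 in controls, where 7.87% of all genes rose and 2.91% fell. Of 8 tested, the 1 called with T0901317 in W/W was Nr1i2 (PXR), which T0901317 also binds, at 0.40 (adjusted p = 0.0153), and it was also called in W/F at 0.41 (adjusted p = 0.00150) and in F/F at 0.33. Ppara was lower in F/F than in W/W on vehicle, at -0.91 (adjusted p = 0.00680) and on T0901317, at -1.33 (adjusted p = 2.90e-04), and on chow the difference was -0.34 (adjusted p = 0.353). F/F livers held more Ppard than W/W, with differences of 1.17 (adjusted p = 1.19e-09) on vehicle and 0.71 (adjusted p = 1.76e-05) on T0901317. The medians over all genes there were 0.70 and 0.43, and 69.3% and 56.3% of all genes were higher. After rescaling, 1 of the 8 receptors was higher and 5 were lower in each of these comparisons. Pparg was higher in W/F than in W/W on vehicle by 1.18 (adjusted p = 2.71e-05), or by 0.55 (adjusted p = 0.0483) after rescaling.

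Of 7 tested PPARgamma targets of fatty liver, 4 rose with T0901317 in W/W, against 7.87% of all genes. Mogat1, of triglyceride synthesis, was at 2.22 (adjusted p = 4.95e-07). On T0901317, 4 were lower in W/F than in W/W and 6 in F/F, against 6.23% and 6.96% of all genes. In F/F the median was -1.08 against 0.43 over all genes, and Mogat1 was the lowest at -3.74 (adjusted p = 2.98e-12). With the diet 5 rose in W/W, against 2.59% of all genes. The lipid droplet protein G0s2 had the largest difference there, 2.54 (adjusted p = 1.89e-04).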
